A study of Mus musculus with 2 samples.

Results

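The muscle miRNAs considered here were the smooth muscle miRNAs mmu-miR-143, mmu-miR-145a and mmu-miR-145b and the striated muscle miRNAs mmu-miR-1a, mmu-miR-1b, mmu-miR-133a, mmu-miR-133b and mmu-miR-206. They were found by probe name, with all arms included, and had 16 of the 1900 mouse miRNA probes on the array. Of these 16 probes, 5 were for smooth muscle and 11 for striated muscle miRNAs, each with 1 spot. The samples were total RNA of mononuclear cells from the lamina propria of the colon of male Balb/c mice. One group was germ-free, without a microbiota, and the other was specific pathogen-free (SPF), with 1 array each. The sources used here do not give the age of the mice, the number of animals behind each RNA or the way the cells were isolated. With 1 array per group there is no replicate check and no test, and the values describe these 2 arrays.

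miR-143 and miR-145a are encoded side by side and are processed from a common transcript. They are abundant in smooth muscle cells, where they hold the contractile state, and are known in the colon mainly from the muscle layers, pericytes and other mesenchymal cells. miR-1, miR-206 and the miR-133 family are made in skeletal and cardiac muscle under the myogenic factors, miR-206 in skeletal muscle only, and are not known as miRNAs of leukocytes. A miRNA recognises its targets mainly through the seed, the bases 2 to 8 from its 5′ end.

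RefSeq (GRCm38.p6) gave a mature sequence for 5 of the 16 probes. All of these are shown. Both arms of miR-133b were above the floor on both arrays. Both arms of miR-206 and the 5p arm of miR-1a-1 were under the floor or next to it on both arrays. Capitals mark the seed, and all are written 5′ to 3′.
mmu-miR-133b-3p: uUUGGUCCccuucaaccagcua
mmu-miR-133b-5p: gCUGGUCAaacggaaccaaguc
mmu-miR-206-3p: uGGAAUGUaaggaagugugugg
mmu-miR-206-5p: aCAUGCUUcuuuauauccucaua
mmu-miR-1a-1-5p: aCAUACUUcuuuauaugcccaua
The 5 seeds differed from one another. The 5p arms of miR-206 and miR-1a-1 were identical at 20 of 23 bases, and miR-1a-1-5p differed from miR-206-5p by G5A, C17G and U19C, counted from 1 at the 5′ end with the base of miR-206-5p first. GC content was 50.0% and 54.5% for miR-133b-3p and miR-133b-5p, 45.5% for miR-206-3p and 30.4% for each of the other two.

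Mir206 lies on chromosome 1 at 20679010 to 20679082 and Mir133b at 20682769 to 20682887, both on the plus strand and 3686 bases apart. In GENCODE M21 (GRCm38) both overlap exons of the lincRNA Gm28653 on the same strand. Mir1a-1 lies on chromosome 2 at 180389048 to 180389124 and Mir133a-2 at 180398379 to 180398482, on the plus strand and 9254 bases apart, with no other annotated gene over them. The second copies, Mir1a-2 and Mir133a-1, and the antisense Mir1b lie on chromosome 18 in introns of Mib1. Mir1a-2 and Mir133a-1 are on the strand opposite to Mib1, in introns of Mir133a-1hg on their own strand. Mir1b is on the strand of Mib1. Mir143 and Mir145a lie 1301 bases apart on chromosome 18, outside any other annotated gene, and Mir145b lies elsewhere on that chromosome. A probe for miR-133a-3p or miR-1a-3p cannot tell the 2 genomic copies apart.

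Intensities are the deposited median spot signals at 635 nm, in arbitrary units. The 896 blank spots of the germ-free array averaged 128.5 (SD 4.53) and 895 on the SPF array averaged 158.3 (SD 5.33), and net intensity is the signal minus that mean. A probe was counted as detected above a floor of the blank mean + 2 SD, an intensity of 137.6 in germ-free and 169.0 in SPF mice. The 174 spots without a probe were brighter than blank spots, with a mean + 2 SD of 165.8 and 202.2. Most of them also passed the floor (germ-free 66.7%, SPF 71.8%). Being detected in this sense therefore does not by itself show that a miRNA was present. Of leukocyte miRNAs, miR-150-5p of lymphocytes was at 18828 in germ-free and 9052 in SPF mice. miR-142a-5p of all leukocytes was at 5927 and 4493. miR-223-3p of neutrophils and monocytes went the other way, at 750.9 and 1383.

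Most smooth muscle probes were above the floor on both arrays, as were most miRNA probes of the array, and most striated muscle probes were not. Of the 16 probes, 7 were above the floor on both arrays, 4 of 5 for smooth and 3 of 11 for striated muscle, where 77.4% of all miRNA probes were. Another 8 were under it on both arrays, and miR-1a-1-5p was above it on the germ-free array only. Above the level of spots without a probe on both arrays were 4 of 16, against 54.8% of all miRNA probes. These 4 were miR-143-5p, miR-143-3p, miR-145a-5p and miR-133b-3p.

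**Figure D1:**
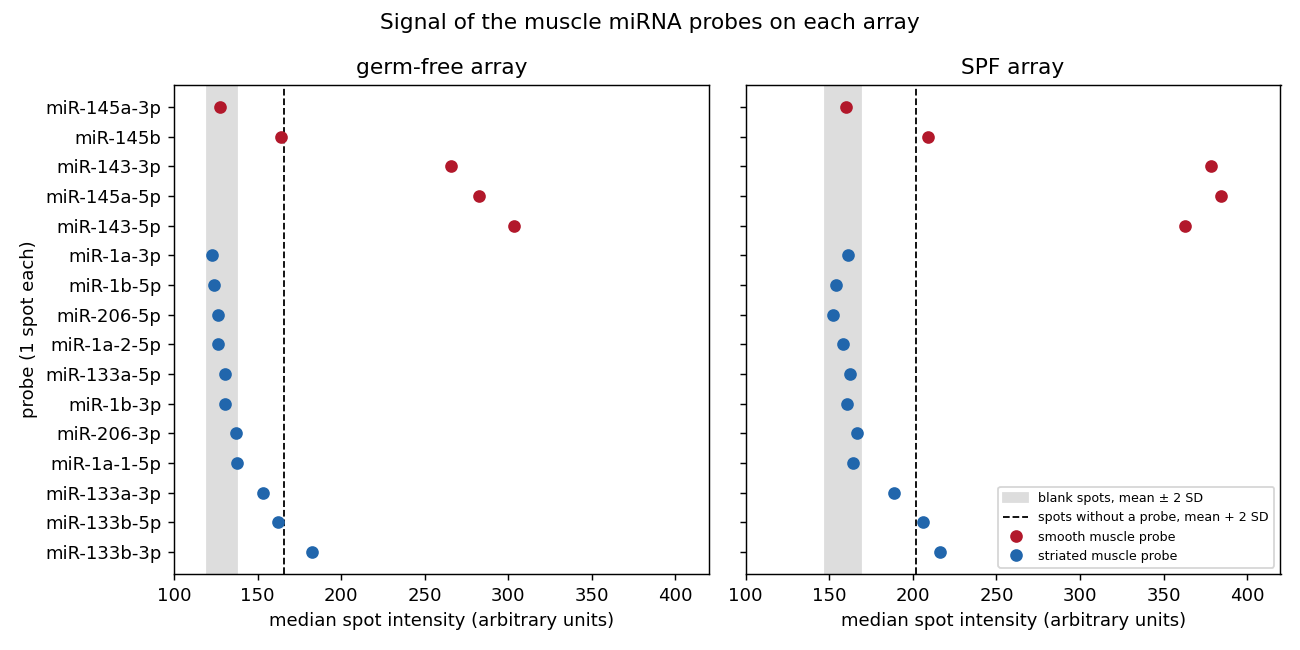
Median spot intensity (x axis, arbitrary units) of the 16 muscle miRNA probes on either array, 1 point per probe. The grey band is the blank mean ± 2 SD and the dashed line the mean + 2 SD of spots without a probe. Both arms of miR-143 and miR-145a-5p stand apart at 265.7 to 303.5 and 362.7 to 384.7, and 8 of the 11 striated probes lie in or at the edge of the band.

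miR-143, which in smooth muscle lowers regulators of the non-contractile state such as Elk1, gave signal from both arms. miR-143-3p, its main arm in most tissues, had an intensity of 265.7 in germ-free and 378.3 in SPF mice. miR-143-5p had 303.5 and 362.7. Both were far outside the blank spots and ranked 552 and 480 of 1900 miRNA probes by signal on the germ-free array, and 451 and 474 on the SPF array. In net intensity the 5p arm was 37.8 above the 3p arm on the germ-free array (technical SD of the difference 20.8, from repeated control spots) and differed from it by -15.6 on the SPF array (technical SD 23.3). The arms were thus not separated beyond 2 technical SDs on either array. Different probes are not on a common scale of RNA amount, so the order of the arms on one array is an order of spot intensities.

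miR-145a, which acts with miR-143 in smooth muscle and targets Klf4 and Klf5, gave signal from 1 arm. miR-145a-5p had an intensity of 282.5 in germ-free and 384.7 in SPF mice. miR-145a-3p had 127.6 and 159.8, within 1 blank SD of the blank mean on both. The local background measured around the miR-145a-5p spot was 283.3 on the germ-free array, above the spot itself, and 175.7 on the SPF array. The median local background of all miRNA spots was 133.7 and 157.3. miR-145b, from its own locus, had 163.8 and 209.1, above every blank spot on both arrays and above the level of spots without a probe on the SPF array only.

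Of miR-133a and miR-133b, which limit smooth muscle genes and cell proliferation in striated muscle, 3 of 4 arms were detected. The array also had a probe for mmu-miR-133c, which was not among the muscle probes considered here. That probe was above the floor on both arrays and lower on the SPF array after scaling, and its technical SD is not given here. miR-133b-3p was the brightest striated probe, at 182.5 in germ-free and 216.1 in SPF mice. miR-133b-5p had 162.3 and 206.0, above the level of spots without a probe on the SPF array only. miR-133a-3p, nearly identical in sequence to miR-133b-3p, had 153.3 and 188.6, and cross-hybridisation between these 2 probes was not tested. miR-133a-5p had 130.4 and 162.4 and was under the floor on both arrays. miR-133a-3p was above 88.5% and 89.7% of the spots without a probe, and miR-133b-3p above 97.7% and 98.3%.

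The miR-1 and miR-206 family, which promotes muscle differentiation and represses Hdac4, was under the floor or next to it. miR-1a-3p, the arm that dominates in heart and skeletal muscle, had an intensity of 122.4 in germ-free and 161.0 in SPF mice. In units of the blank SD, the first value lies at -1.35 from the blank mean and the second at 0.50. miR-206-3p had 137.3 and 166.8, just under the floor on both arrays. miR-1a-1-5p had 137.9 and 164.5, and its germ-free value passed the floor by less than 1 unit of intensity. miR-1a-2-5p (126.3 and 158.3), miR-206-5p (126.1 and 152.2), miR-1b-3p (130.6 and 160.8) and miR-1b-5p (123.9 and 154.2) lay between -1.16 and 0.46 blank SDs from the blank mean. No fold is given for these probes, since both values were at or under the floor or, for miR-1a-1-5p, next to it. At this signal a low level of these miRNAs could not be told from none.

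Whether a probe was above the floor also went with its base composition. Of 1614 miRNA probes with a RefSeq sequence, 34.1% were detected on both arrays when their miRNA had under 35% GC, 49.7% from 35% to under 45%, 81.1% from 45% to under 55% and 93.8% from 55%. The 2 probes shown above with 30.4% GC fall in the first class, where most probes were under the floor. miR-206-3p lies in the third, with both arms of miR-133b. The part of base composition in the low signal of miR-1a-1-5p and miR-206-5p was not tested.

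Among the miRNAs with a RefSeq sequence here, 2 others had the seed of miR-206-3p. They are shown for the level of other probes with that seed. The muscle probes without a sequence, miR-1a-3p and miR-1b-3p among them, could not be searched for it.
mmu-miR-6349: uGGAAUGUgggaggggcaugcg
mmu-miR-6382: uGGAAUGUaaagagagcacacaag
miR-6349, on chromosome 1 at 39186908 to 39186929, had 63.6% GC and an intensity of 635.0 in germ-free and 763.3 in SPF mice. miR-6382, on the X chromosome at 106309909 to 106309932, had 41.7% GC and 149.9 and 186.5. Both probes were brighter than the one for miR-206-3p on both arrays, and their log2 SPF over germ-free was 0.02 and 0.16. None of the other 4 seeds shown above recurred among the 1679 mature miRNAs with a sequence here. These lack miR-133a-3p and most other muscle probes, so a seed shared with one of those would have been missed.

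The comparison asked how far the muscle miRNAs differ between SPF and germ-free mice. SPF net intensities were multiplied by 0.849, which sets the median net intensity of the 1471 miRNA probes detected on both arrays equal, and log2 SPF over germ-free was taken. Its median over these 1471 probes was -0.06, with quartiles of -0.27 and 0.18. The technical SD of a difference was computed from repeated control spots within the arrays. It combines a pooled SD of 10.9 and 9.68 intensity units for 19 dim controls (germ-free and SPF, in this order) and of 0.0908 on the log2 scale for 5 bright ones. It holds no spread between arrays or animals.

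Of the 7 detected probes, miR-143-3p differed between the arrays by more than 2 technical SDs, miR-145a-5p by between 1 and 2, and the other 5 by less than 1. The share of all detected miRNA probes beyond these cuts is not given here. The count therefore does not show whether muscle probes differed more or less often than others. miR-143-3p had the highest log2 value of the 7, with a net intensity of 137.2 in germ-free and 186.8 in SPF mice after scaling. Its log2 SPF over germ-free was 0.45 (technical SD 0.18), or 1.36-fold, above 91.6% of the detected miRNA probes. miR-145a-5p had net intensities of 154.0 and 192.2 and a log2 value of 0.32 (technical SD 0.18). miR-143-5p had 175.0 and 173.5 and a log2 value of -0.01 (technical SD 0.17). The log2 values of the miR-143 arms, which come from 1 precursor, differed by -0.46 (5p minus 3p, technical SD 0.25), which is under 2 technical SDs. Fewer cells of a type and less of a miRNA per cell cannot be told apart in these samples.

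The weaker probes carried wide errors. miR-145b had net intensities of 35.2 and 43.1 and a log2 value of 0.29 (technical SD 0.54). miR-133b-5p had 33.8 and 40.5, a log2 value of 0.26 (technical SD 0.56). Neither difference exceeded the spread of repeated dim control spots. miR-133a-3p had 24.8 and 25.7, a log2 value of 0.05 (technical SD 0.79). miR-133b-3p had 53.9 and 49.1 and was the lowest, at -0.14 (technical SD 0.40).

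**Figure D2:**
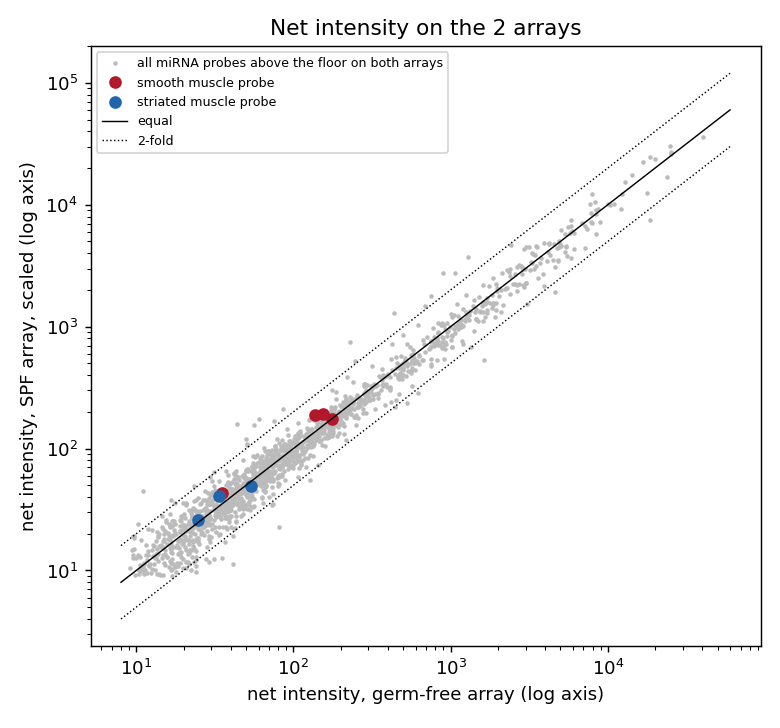
Net intensity on the germ-free array (x axis, log) against the scaled net intensity on the SPF array (y axis, log) for the 1471 miRNA probes detected on both, with the 7 detected muscle probes in colour. The solid line is equality and the dotted lines a 2-fold difference. All 7 lie between the dotted lines, and miR-143-5p is nearly on the line of equality.

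None of the 7 detected muscle probes was 1.5-fold or more apart, against 12.2% of all detected miRNA probes. None was 2-fold apart, against 2.99% of all. Of all 1471 detected miRNA probes, 623 were higher and 848 lower on the SPF array. The 4 smooth muscle probes had a median of 0.31, with 3 higher and 1 lower on the SPF array (4 higher without scaling, 1 higher and 2 lower with local background). The 3 striated probes had a median of 0.05, with 2 higher and 1 lower (3 higher without scaling, 1 higher and 2 lower with scaling on the bright controls or with local background). Summed over its 5 probes, the smooth muscle net intensity was 501.4 in germ-free and 596.9 in SPF mice, a log2 value of 0.25 (technical SD 0.11). Summed over 11 probes, the striated net intensity was 134.5 and 135.5, a log2 value of 0.01 (technical SD 0.49).

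The smooth muscle values moved with the handling of background and scaling. With each spot's own local background subtracted, miR-143-3p was at 0.01 and miR-145a-5p had no value, because its local background exceeded its signal on the germ-free array. Without scaling between arrays, miR-143-3p was at 0.68, miR-145a-5p at 0.56 and the smooth muscle median at 0.54, while the median of all detected probes was 0.18. With scaling on the bright controls the median of all was -0.19, and miR-143-3p was at 0.32 and miR-145a-5p at 0.19. Without any background subtraction miR-143-3p was at 0.23 and miR-145a-5p at 0.17. The other 5 detected probes lay within 1 technical SD of 0 as reported, and their sign was not stable.

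**Figure D3:**
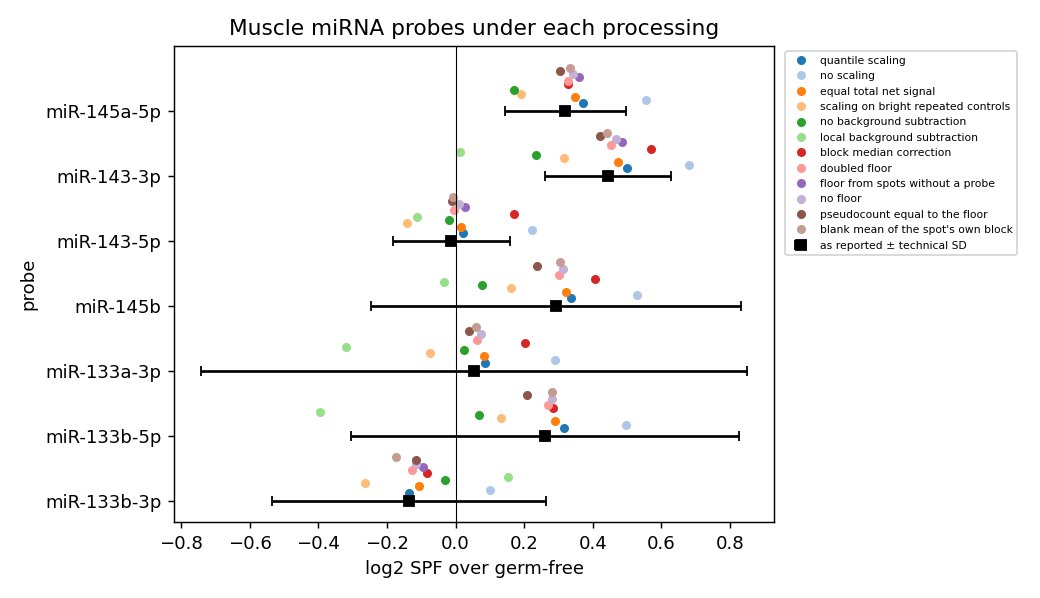
Log2 SPF over germ-free (x axis) of the 7 detected muscle probes as reported (black squares, bars ± the technical SD) and under each of the other settings (coloured points, shifted upward only to be seen). miR-143-3p was above 0 under all 12 other settings, from 0.01 to 0.68, and miR-143-5p lay on both sides of 0.

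Other muscle-linked miRNAs were taken from a list of miR-208a, miR-208b, miR-499, miR-490, miR-486a and miR-486b, with 11 probes. On both arrays 4 were detected, with none 1.5-fold apart. All 4 were lower on the SPF array, as were 848 of all 1471 detected miRNA probes. Without scaling or with local background subtracted, 2 of the 4 were higher. The cardiac and slow muscle miRNAs miR-208b and miR-499 were under the floor in every arm on both arrays. miR-208a-5p was detected at 223.6 in germ-free and 266.6 in SPF mice (log2 SPF over germ-free -0.05), while its partner miR-208a-3p, at 127.7 and 158.1, was at the level of blank spots. miR-490-5p, from an intron of the muscarinic receptor gene Chrm2 and known in gut smooth muscle, was under the floor at 136.7 on the germ-free array and above it at 173.8 on the SPF array. miR-490-3p was under it on both, at 137.2 and 167.2. The bright members were miR-486b-3p, at -0.45, and miR-486a-3p, at -0.48, which are also miRNAs of red blood cells.

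Markers of other cells that the isolate could hold went in both directions. All 5 fibroblast and pericyte probes (miR-199a, miR-199b and miR-214) were detected, with signals of 173.3 to 757.1 on the germ-free and 208.4 to 741.6 on the SPF array. Their summed net intensity was 1375 and 1217 (log2 SPF over germ-free -0.18). The sign differed from that of the smooth muscle sum, but was the same without scaling, at 0.06, and with local background, at 0.40. Of 4 endothelial probes (miR-126a and miR-126b) 1 was detected on both arrays, and both arms of miR-126b were under the floor. The detected probe, miR-126a-3p, was higher on the SPF array, at log2 0.25, while the endothelial sums of 90.4 and 86.9 gave -0.06 (0.18 without scaling and -0.85 with local background). All 16 detected of 17 epithelial probes were higher on the SPF array, with sums of 5758 and 14956 (log2 1.38), while 15 of 16 were with scaling on the bright controls and 9 of 13 with local background. The 6 leukocyte probes summed to 28281 and 13873 (log2 -1.03), with 4 of the 5 detected on both arrays lower. miR-150-5p alone held net intensities of 18699.5 and 7552 of these sums. miR-223-3p was higher on the SPF array, at log2 0.74, and miR-223-5p was above the floor there only. With local background, where miR-150-5p counted as 0 on the germ-free array, the log2 value of the leukocyte sum was 1.88. The 6 erythroid probes summed to 8107 and 6466 (log2 -0.33), all of them detected and lower, with 5 of 6 lower without scaling and 4 of 6 with local background, where the sum was at 0.45. The 4 neuronal probes summed to 16.8 and 12.4, and 3 of them, both arms of miR-9 among them, were under the floor on both arrays. The part of these cell types in the muscle values was not tested.

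**Figure D4:**
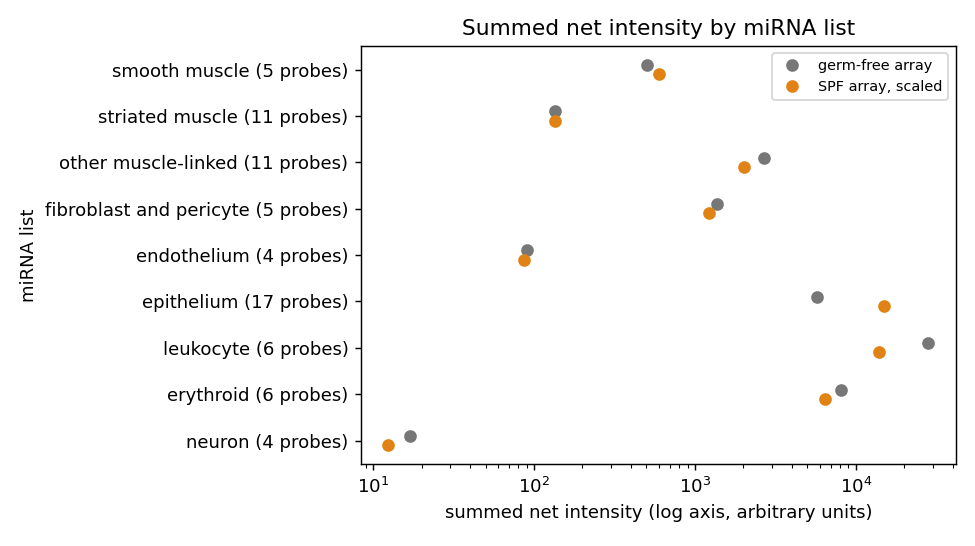
Summed net intensity (x axis, log, arbitrary units) of each list of miRNAs in germ-free (grey) and, after scaling, SPF mice (orange), with the number of probes beside each name. The smooth muscle sums of 501.4 and 596.9 lie close together, while the epithelial and leukocyte sums as plotted differ more than 2-fold in opposite directions. Without scaling the leukocyte log2 value was -0.79, under 2-fold, and with local background it had the other sign.

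The muscle probes, 16 of the 1900 miRNA probes, held a small part of the net signal on either array. This is a share of spot intensity, not of RNA amount. The 5 smooth muscle probes held 0.0489% of the net miRNA signal in germ-free and 0.0594% in SPF mice. The 11 striated probes held 0.0131% and 0.0135%.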

How the data were processed

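Per the file headers, the authors deposited a median spot intensity and a median local background intensity at 635 nm for 3200 spots on each of 2 arrays, scanned at 3 gains. As far as the columns show, no background was subtracted and no scaling applied. Per the labels' protocols, RNA came from a Qiagen kit and was labelled with Hy5 by an Exiqon kit. The sources used here do not name the array platform or the scanner software. Groups come from the sample titles. Net intensity, the floor, the scaling and the technical SD are as the report gives them. Bright controls had a mean above 400 on both arrays, and all controls used had at least 8 spots. The SPF array had 1 spot marked NG, a blank, which was left out. The procedure was tested on simulated data with known changes, larger on the log2 scale than any muscle probe difference. The additive noise there was the blank SD, which is below the SD of the dim controls. The simulation therefore does not show how well small differences of dim probes are recovered. Every probe of the named miRNAs is reported, and of the other lists those detected on both arrays, the defining probes or the brightest, plus undetected arms named after their values were seen. Members, lists and settings were chosen with earlier results of these data known. The background from each spot's own block was chosen after seeing the data. Python 3.11.15, numpy 2.4.6 and pandas 2.3.3 were used.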

Additional observations from a re-analysis of the deposited data

How the results depend on the processing

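The 7 summary values were recomputed under 12 other settings. The smooth muscle median of 0.31 was 0.54 without scaling, 0.12 when no background was subtracted and -0.033 after subtraction of the local background, where 3 probes had a value. The smooth muscle sum of 0.25 was 0.49 without scaling, 0.12 with scaling on the bright controls, 0.11 when no background was subtracted and 0.64 after subtraction of the local background, where miR-145a-5p counted as 0 on the germ-free array. Under all 12 settings the striated median moved by less than 0.56, which is the median technical SD of its 3 probes. The striated sum moved by less than its own technical SD of 0.49. The striated median ranged from -0.32 to 0.29 and the sum from -0.25 to 0.25, so their direction was not stable. The number of muscle probes detected on both arrays was 4 when spots without a probe set the floor and 11 without a floor. Without a floor most miRNA probes of the array had a value as well. The number at least 1.5-fold apart was 1 without scaling and 2 without a floor, where 20.0% of all probes with a value were so far apart. Without scaling, the share of the detected muscle probes so far apart was close to the share of all detected miRNA probes. None of the muscle probes was 2-fold apart under any of the 12. miR-133b-5p was at -0.40 with local background subtraction, and miR-143-5p at 0.17 with the block median correction and 0.22 without scaling. The causes were not tested. No paired analysis was possible because each group has 1 array.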
